A study of Mus musculus with 40 samples.

Results

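The SLC25 family, the carriers that move metabolites across the inner mitochondrial membrane, was followed by messenger RNA sequencing in skeletal muscle of C57BL/6 mice. Members were taken as every gene whose mouse symbol is Slc25a followed by a number, which gave 47 of the 23621 genes in the table. All 47 were kept in the counts below. In each muscle 40 of them had enough counts to be tested, and 7 (Slc25a18, Slc25a21, Slc25a31, Slc25a41, Slc25a43, Slc25a48 and Slc25a54) did not.

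The 40 libraries fell into 12 groups. In quadriceps, 8 groups of 3 libraries held sedentary mice at ZT0, ZT4, ZT12 and ZT16 (zeitgeber time, hours after lights on) and mice that had run to exhaustion on a treadmill in a session at ZT0 or ZT12. Runners were sampled right after the run (+0h, labelled ZT0.5 and ZT12.5) or 3 h later (+3h, labelled ZT3.5 and ZT15.5). Each was compared with the sedentary group nearest in time, ZT0 and ZT12 for +0h, ZT4 and ZT16 for +3h. In gastrocnemius, 4 groups of 4 libraries held mice with a running wheel during the night or during the day, sampled at ZT4 or ZT16. No gastrocnemius group without a wheel was analysed here, and the labels give neither the sex nor the age of the mice. The library names carry a different tag for each library, read here as separate animals.

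Carriers of this family share a fold of repeated membrane-spanning segments, and most exchange one solute for another. Together they supply the matrix with ADP, phosphate, fuels and cofactors and return ATP and intermediates to the cytosol. In skeletal muscle the heart and muscle form of the ATP/ADP exchanger and the phosphate carrier serve oxidative phosphorylation. The ATP-Mg/phosphate carriers, several of which bind calcium, adjust the adenine nucleotide content of the matrix.

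Library totals ran from 27352875 to 79491649 estimated counts, the lowest being treadmill +0h ZT0 replicate 3. The 8 skeletal muscle markers summed to 133756 CPM (the count of a gene relative to the scaled library size) or more in every library. Adipocyte markers varied between quadriceps libraries, from 230.1 to 2380 summed CPM, and slow fibre markers from 67.6 to 2328. No slow fibre marker passed in any comparison, but their median log2 fold change was -2.14 right after the ZT0 run and -1.57 3 h after the ZT12 run, and their part in the results below was not tested. Endothelial markers passed in 3 of 6 right after the ZT0 run (1 higher, 2 lower), 1 of 6 right after the ZT12 run (higher), 2 of 6 3 h after the ZT0 run (1 higher, 1 lower) and 2 of 6 3 h after the ZT12 run (both higher). Their sums were 245 to 268 against 261 to 316 CPM, 178 to 199 against 167 to 219, 253 to 309.6 against 268 to 312 and 247 to 275 against 233 to 248 in that order. Of the 8 skeletal muscle markers 1 rose right after the ZT0 run and 4 rose 3 h after the ZT12 run, with sums there of 174480 to 197522 against 139969 to 164600 CPM, and 1 of 6 macrophage markers fell at the latter time. Skeletal muscle sums were also higher right after the ZT0 run, at 153610 to 192631 against 133756 to 152226 CPM. Right after the ZT12 run they were 196132 to 206658 against 159877 to 177171 CPM, with 0 of 8 called and 4 with an unadjusted p under 0.05 in edgeR. The sums overlapped 3 h after the ZT0 run. The macrophage sums were 134.9 to 160.0 CPM right after the ZT0 run against 99.2 to 112 in sedentary muscle, with 0 of 6 called and 4 with an unadjusted p under 0.05 in edgeR. Erythroid sums were 224 to 328 CPM right after the ZT12 run against 188 to 218 in sedentary muscle. There 0 of 6 erythroid markers were called and 4 had an unadjusted p under 0.05 in edgeR, all 6 with positive changes. Their median log2 fold change was 0.49 there, -0.17 right after the ZT0 run and -0.41 3 h after the ZT0 run. No marker was at 0 throughout a group, and the part of these shifts in the treadmill results was not tested. The tissue was whole muscle, so fewer cells of a type and less RNA per cell cannot be told apart.

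Levels between genes were compared per kilobase of transcript. Slc25a4, the heart and muscle ATP/ADP exchanger, was the highest member in sedentary quadriceps, at 1783 CPM per kb. Slc25a3, the phosphate carrier, followed at 384 CPM per kb, then Slc25a11, the oxoglutarate/malate carrier, at 135, and Slc25a12, the aspartate/glutamate carrier, at 68.5. The same 4 genes led in the same order in gastrocnemius, at 1907, 439.7, 149 and 68.6 CPM per kb. Of all the CPM assigned to members, Slc25a4 held between 56.5% in the treadmill +0h ZT0 group and 64.4% in the night wheel ZT4 group. The order differed between muscles for a few members: Slc25a25 stood 5th in sedentary quadriceps and 12th in gastrocnemius, Slc25a1 11th and 28th, and Slc25a10 21st and 31st. Mice and conditions differ between these sets of libraries, so muscle and treatment cannot be told apart there. At the low end, Slc25a54 had 3 counts over all 40 libraries and Slc25a31, the testis ATP/ADP exchanger, had 29.

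**Figure D1:**
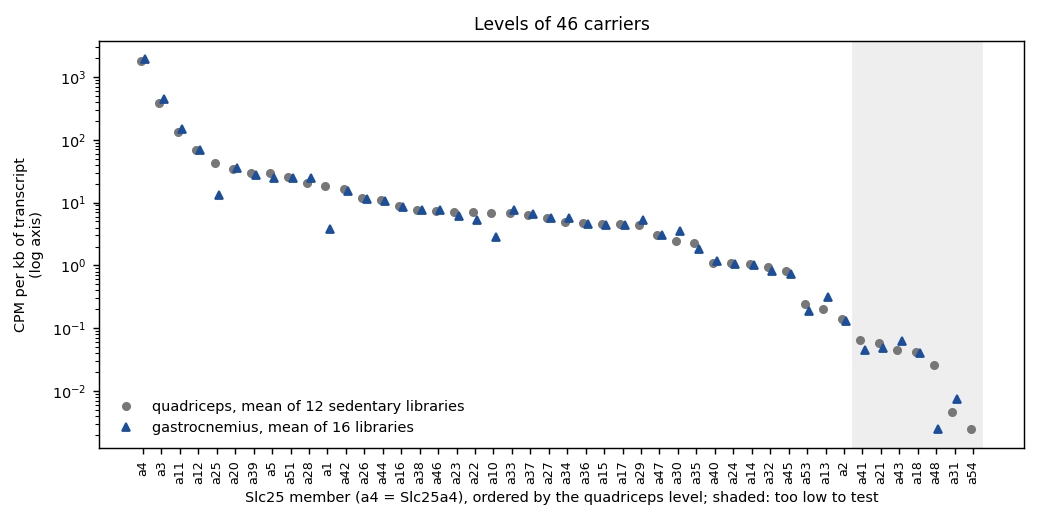
Level of 46 members in CPM per kb of transcript (log axis) in sedentary quadriceps (circles, mean of 12 libraries) and gastrocnemius (triangles, mean of 16 libraries). Slc25a4 stands at 1783 and 1907 CPM per kb, and the 7 members too low to test are shaded, with a member at 0 left off the log axis.

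A gene was counted as changed where its Benjamini-Hochberg adjusted p in edgeR's quasi-likelihood test, taken over all genes of the muscle, was under 0.05. Right after the ZT0 run 3 members rose and 1 fell (4 of 40, 10%, against 6.82% of all genes tested, 4.29% higher and 2.53% lower). Right after the ZT12 run 1 rose and 1 fell (2 of 40, 5%, against 4.6%, 3.19% higher and 1.41% lower). 3 h after the ZT0 run 2 rose and 5 fell (17.5% against 13.6%, 6.96% higher and 6.63% lower), and 3 h after the ZT12 run 3 rose and 8 fell (27.5% against 17.2%, 8.7% higher and 8.53% lower). All 4 shares lay above those of all genes, and the first 2 were close to them. Both +0h counts turned on single libraries. For the ZT0 run the count was 2 without sedentary ZT0 replicate 1 or treadmill replicate 1 and 7 without replicate 2 of either group. For the ZT12 run it was 0 without sedentary replicate 1 or treadmill replicate 1 or 2, 1 without sedentary replicate 2 or treadmill replicate 3, and 4 without sedentary replicate 3. In ZT0 runners at +3h the count was 4 without sedentary ZT4 replicate 3. Shares of all genes in these refits are not given here, so a shift of the family cannot be told from one of all genes. The median log2 fold change over the 40 tested members stayed near 0 in each comparison, at -0.06, -0.01, -0.05 and -0.01 in that order, as did that over all genes.

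Whether the family moved as a whole between times or schedules was not tested. The median log2 CPM of tested members was 3.66 to 3.93 in night wheel ZT4 libraries and 4.11 to 4.32 in night wheel ZT16. With the day wheel it was 4.01 to 4.23 at ZT4 and 3.88 to 4.22 at ZT16. Sedentary quadriceps gave 4.03 to 4.25 at ZT0, 4.34 to 4.53 at ZT4, 4.09 to 4.51 at ZT12 and 4.15 to 4.26 at ZT16. Among the 4 sedentary groups 9 members differed (22.5%, against 17.1% of all genes). Day and night wheel mice differed in 5 members at ZT4, 3 higher and 2 lower with the day wheel (5 of 40, against 13.1% of all genes, 6.36% higher and 6.78% lower). At ZT16 none differed in edgeR (0% against 0.565%, 0.275% higher and 0.289% lower). There 8 of 40 members had an unadjusted edgeR p under 0.05, a larger share than the 1942 of all 14523 genes, and 4 members passed in DESeq2. From ZT4 to ZT16, 8 members rose and 3 fell in night wheel mice (27.5% against 18.8%, 9.41% higher and 9.38% lower), and 4 rose and 1 fell in day wheel mice (5 of 40, against 14.9%, 7.7% higher and 7.17% lower). The change from ZT4 to ZT16 itself differed between schedules for 4 members, all lower (10% against 9.74%, 4.68% higher and 5.07% lower). The change after a run differed between sessions for 3 members at +3h, 2 higher and 1 lower (7.5% against 1.59%, 0.649% higher and 0.941% lower) and for none at +0h in edgeR (0 of all 15097 genes). At +0h 15 of 40 members had an unadjusted edgeR p under 0.05, a larger share than the 1912 of the 15097 genes. That excess was not tested. The number of members called at +3h fell to 1 without treadmill +3h ZT12 replicate 2 or 3 or sedentary ZT16 replicate 1. That at +0h rose from 0 to 4 without treadmill +0h ZT0 replicate 2. For the wheel, the ZT4 difference was 3 members without day wheel ZT4 replicate 4, the ZT16 difference 1 without night wheel ZT16 replicate 2, and the day wheel change 3 without day wheel ZT4 replicate 1, 3 or 4 or ZT16 replicate 1 or 3. As above, the counts in these refits and in DESeq2 come without the shares of all genes. Several of these comparisons share a group of libraries, such as sedentary ZT0 in the ZT0 run and the sedentary comparison, or night wheel ZT4 in 3 of the wheel comparisons, so they are not independent of each other. Of the 40 tested members 21 passed in at least 1 of the 12 comparisons and 19 in none.

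Groups whose libraries did not overlap were common among all genes, so a gap between groups is read below only as a description. For members against all genes it held right after the ZT0 run for 11 of 40 against 24.9%, right after the ZT12 run for 8 against 20.2%, and 3 h later for 14 against 30.7% and 20 against 32.9%. Between wheel schedules it held for 9 members against 21.1% at ZT4 and 3 against 6.67% at ZT16, and between ZT4 and ZT16 for 15 against 21.3% with the night wheel and 6 against 20.3% with the day wheel.

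**Figure D2:**
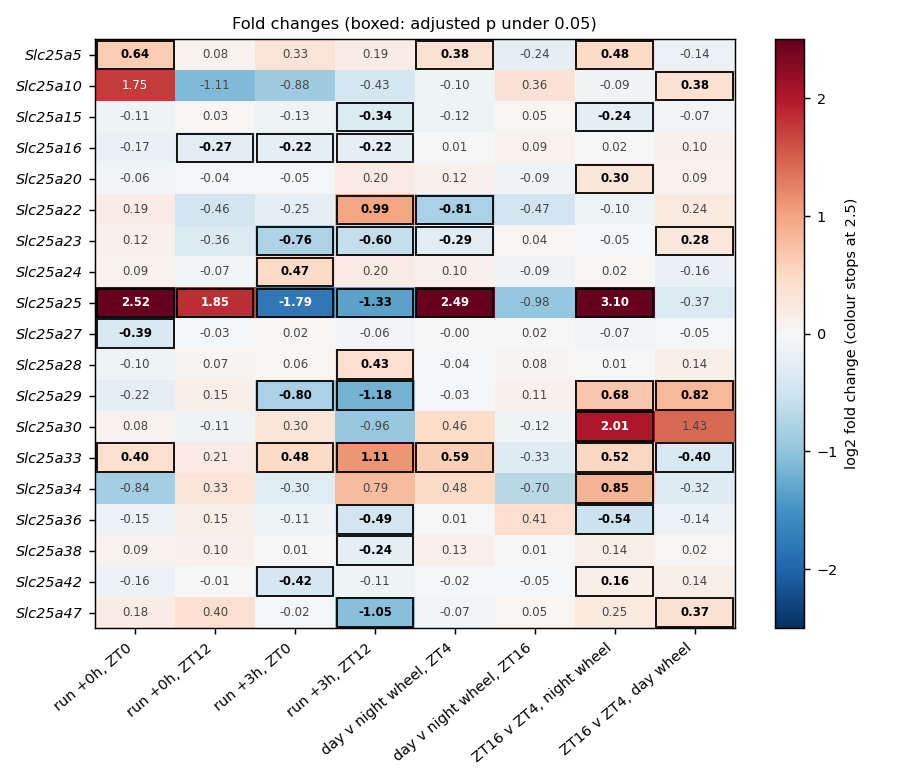
Log2 fold changes of 19 members that passed in at least 1 of 8 comparisons between pairs of groups (columns), with boxes around those with an adjusted p under 0.05. Slc25a25 has the strongest colours, from 3.10 between ZT16 and ZT4 in night wheel mice to -1.79 3 h after the ZT0 run, while the Slc25a20 row is pale except for 0.30 in night wheel mice.

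The ATP-Mg/phosphate carriers held the member with the widest swings, Slc25a25. This calcium-binding carrier (Entrez gene 227731, chr2:32414487-32451470, GRCm38.p6) had 1 of its 3 promoter windows in the RefSeq table (GRCm38.p6) carry the palindrome TGACGTCA, the cyclic AMP response element, 150 bases before the start. The stretch is shown because this member and Slc25a36 below were the 2 of 36 member genes with a window that held the motif, searched on both strands. Capitals mark the motif, 5′ to 3′ on the gene's minus strand at chr2:32424198-32424227.
Slc25a25: tctgcaagcagTGACGTCAgtcctgatctt
Of the 32851 windows of the same length in that set, 1.79% hold it, as do 2 of the 46 member windows. The match describes the sequence and was not tied to any binding in these data.

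Slc25a25 was several times higher in muscle taken right after a run. In sedentary ZT0 muscle its replicates 1 to 3 read 42.9, 67.9 and 112 CPM, and right after the ZT0 run 464, 472 and 338 CPM. Every runner exceeded every sedentary library, and the group was 5.73-fold higher (log2 fold change 2.52, SE 0.46, adjusted p = 0.0031). After the ZT12 run the readings were 649, 532 and 398 CPM against 104, 162 and 170.5 in sedentary ZT12 muscle. The 2 groups again did not overlap, and the rise was 3.62-fold (log2 1.85, SE 0.45, adjusted p = 0.024). That call was lost without sedentary ZT12 replicate 1 or 2 or treadmill replicate 1 or 2 (log2 1.67 to 1.94), and when the adipocyte score was made a covariate (1.74, adjusted p = 0.067). The 2 responses differed by -0.66 on the log2 scale (95% interval -1.97 to 0.65, adjusted p = 0.73), so a difference between sessions was not shown.

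3 h after a run Slc25a25 was below the sedentary level. In the ZT0 session at +3h the replicates read 30.9, 33.2 and 28.3 CPM against 35.5, 118 and 167 in sedentary ZT4 muscle. The 3 runners lay close together, while the sedentary group was wide and its replicate 1 sat just above the runners. The log2 fold change was -1.79 (SE 0.45, adjusted p = 0.014), and without sedentary ZT4 replicate 3 it was -1.31 and no longer passed. It also missed the threshold against sedentary ZT0 muscle (-1.27, adjusted p = 0.072) and in a fit of these 6 libraries alone (-1.80, adjusted p = 0.18). Sampled 3 h after the ZT12 run, readings of 51.1, 94.6 and 75.8 CPM stood against 159, 137 and 262 at sedentary ZT16. The groups did not overlap, and the log2 fold change was -1.33 (SE 0.45, adjusted p = 0.049). Leaving out any 1 of the 6 libraries ended this call, with values from -1.55 to -1.01. The 4 sedentary groups did not differ in this gene by the test across them (adjusted p = 0.15).

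In gastrocnemius Slc25a25 differed with the wheel schedule. Night wheel mice at ZT4 read 9.58, 5.32, 8.21 and 9.49 CPM, the lowest of all groups, and day wheel mice at ZT4 67.3, 28.1, 42.4 and 45.8 CPM. No library overlapped, and the day wheel group was 5.61-fold higher (log2 2.49, SE 0.38, adjusted p = 0.0014). At ZT16 night wheel mice read 58.7, 60.9, 118 and 43.2 CPM, all above their ZT4 level, a rise of 8.56-fold (log2 3.10, SE 0.38, adjusted p = 0.00012). Day wheel mice at ZT16 read 39.01, 32.3, 23.8 and 47.2 CPM, a range that overlapped their ZT4 values (log2 -0.37, SE 0.34, adjusted p = 0.54). The change from ZT4 to ZT16 therefore differed between schedules by -3.46 on the log2 scale (SE 0.51, adjusted p = 0.0012). In the same comparisons endothelial markers moved: 5 of 6 fell with the day wheel at ZT4 and 5 of 6 from ZT4 to ZT16 in night wheel mice. Their summed level was 272 to 284 CPM in night wheel ZT4 libraries, 205 to 236 in day wheel ZT4, 192 to 238 in night wheel ZT16 and 203 to 229 in day wheel ZT16, with no marker at 0 in every library of a group. Macrophage markers fell in 1 of 6 and 3 of 6, and fibroblast markers in 1 of 5 and 2 of 5, in the same 2 comparisons. The part of these markers in these results, and in the other wheel results below, was not tested.

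**Figure D3:**
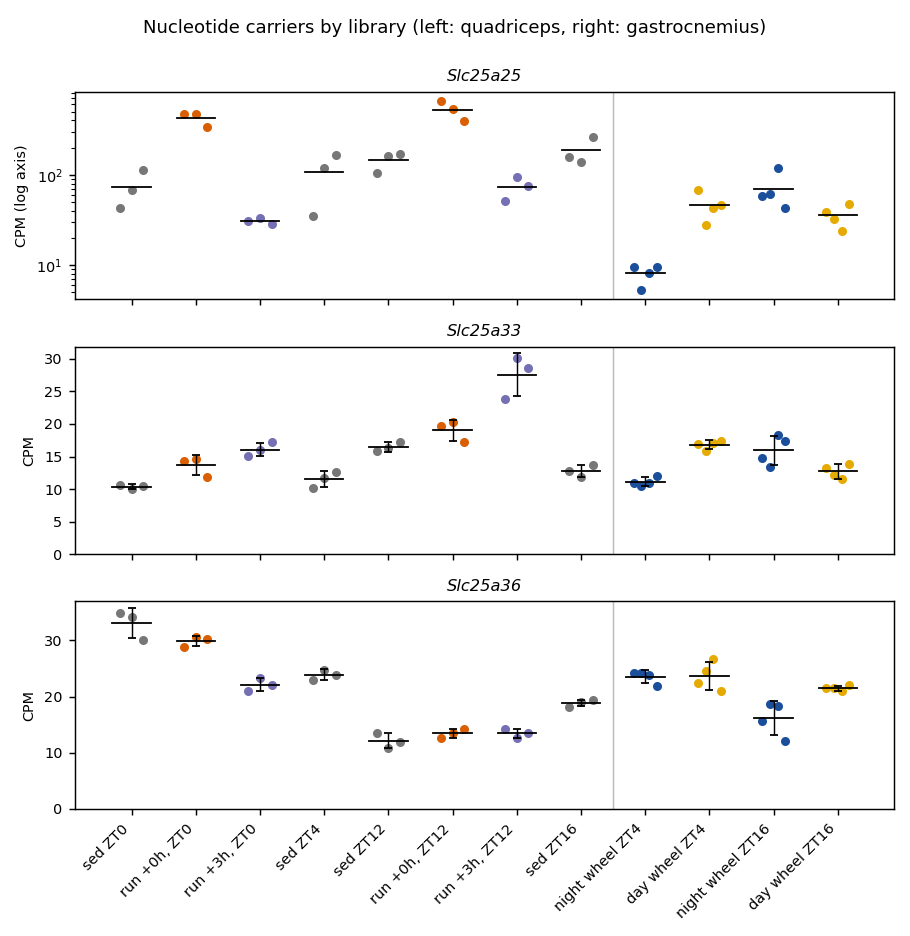
CPM of Slc25a25 (log axis), Slc25a33 and Slc25a36 in every library of the 12 groups, with a line at each group mean and, on the linear axes, bars of 1 SD. Slc25a25 reads 338 to 649 CPM right after a run and 5.32 to 9.58 in night wheel mice at ZT4.

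Slc25a23, another calcium-binding ATP-Mg/phosphate carrier (chr17:57043711-57059909), fell 3 h after both runs. In the ZT0 libraries of +3h it read 13.9, 12.8 and 13.04 CPM against 23.7, 21.6 and 22.01 in sedentary ZT4 muscle (log2 -0.76, SE 0.16, adjusted p = 0.0036). By 3 h after the ZT12 run it read 14.5, 12.9 and 16.6 CPM against 23.6, 21.5 and 21.9 (log2 -0.60, SE 0.16, adjusted p = 0.012), a call lost without treadmill replicate 2 (-0.52). In both sessions the runners lay below every sedentary library of their comparison. Right after the runs it did not pass (log2 0.12 and -0.36, adjusted p = 0.72 and 0.25). In gastrocnemius the day wheel ZT4 group was the low one, at 17.7, 20.04, 19.4 and 14.9 CPM against 22.05, 22.9, 21.5 and 21.5 with the night wheel (log2 -0.29, SE 0.08, adjusted p = 0.019). Day wheel ZT16 muscle read 21.4, 21.3, 21.9 and 22.6 CPM, above every day wheel ZT4 library (log2 0.28, SE 0.08, adjusted p = 0.019). Both wheel calls were lost without day wheel ZT4 replicate 4, at -0.21 and 0.20, and the first also without night wheel ZT4 replicate 2 (-0.27).

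Slc25a24, the third such carrier tested, rose 3 h after the ZT0 run, from 3.85, 3.64 and 3.78 CPM in sedentary ZT4 muscle to 6.60, 5.15 and 3.94 (log2 0.47, SE 0.13, adjusted p = 0.023). Treadmill replicate 1 was highest and replicate 3 just above the sedentary libraries. The call held only when treadmill replicate 3 was the library left out, and the value without treadmill replicate 1 was 0.28. 3 h after the ZT12 run the change was 0.20 (adjusted p = 0.37). Of the 3 tested carriers of this class, Slc25a25 alone passed right after each run. All 3 passed 3 h after the ZT0 run, 2 lower and 1 higher, when 13.6% of all genes did, and 2 of 3 passed, both lower, 3 h after the ZT12 run, when 17.2% did. A class of 3 is too small for these shares to be read as a property of the class. Slc25a41, whose gene ends 2056 bp from Slc25a23, was too low to test.

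The carriers of pyrimidine nucleotides, Slc25a33 and Slc25a36, import the building blocks of mitochondrial DNA and RNA. Both have the E-box CACGTG, the hexamer that clock factors of the basic helix-loop-helix type can bind, in a promoter window. They were picked for display because both also differed among the sedentary groups, so the match and the variation together are no result. The hexamer occurs in 7.15% of the 32851 windows and in 8 of the 46 member windows (17.4%), which belong to 7 genes. The other 5 genes, Slc25a1, Slc25a13, Slc25a14, Slc25a15 and Slc25a31, were not among the 9 members that differed between sedentary groups, and 7 of those 9 have windows without the hexamer. Slc25a31 was too low to test, so it could not have been called. Slc25a36 also has the TGACGTCA motif, and its 2 stretches overlap at their ends. Capitals mark the motif, and all 3 are given 5′ to 3′ on the gene's minus strand (RefSeq, GRCm38.p6). The Slc25a33 stretch is at chr4:149774259-149774286, 8 bases before the start. Those of Slc25a36 are at chr9:97111212-97111239, 187 bases before, and chr9:97111184-97111213, 161 bases before.
Slc25a33 E-box: ccggcctccgcCACGTGacggccgcgcg
Slc25a36 E-box: ccctgggcgatCACGTGaaagaggcgtg
Slc25a36 cyclic AMP response element: tgcgaacctcgTGACGTCAcgcggcctaag
A D-box (TTATGTAA) and an oestrogen-related receptor element (TCAAGGTCA) were in no window of a member and in 0.938% and 0.423% of all windows, which says only that these letters are not in the windows searched.

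Slc25a33 (Entrez gene 70556) rose after runs, most 3 h after the ZT12 run. There it read 23.9, 30.2 and 28.6 CPM against 12.8, 11.9 and 13.7 in sedentary ZT16 muscle, 2.16-fold higher (log2 1.11, SE 0.10, adjusted p = 1.7e-07). In ZT0 runners at +3h it read 15.1, 15.9 and 17.2 CPM against 10.2, 11.8 and 12.6 (log2 0.48, SE 0.10, adjusted p = 0.0025). In neither session did runners and sedentary libraries overlap. The rise was larger after the ZT12 run by 0.63 on the log2 scale (SE 0.14, adjusted p = 0.025). That difference missed the threshold when any 1 of 7 of the 12 libraries was left out (0.56 to 0.62), and in a fit of these 12 libraries alone (0.62, adjusted p = 0.085). The 7 were treadmill +3h ZT0 replicate 1, sedentary ZT4 replicates 2 and 3, treadmill +3h ZT12 replicates 2 and 3, and sedentary ZT16 replicates 1 and 2.

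Right after the ZT0 run Slc25a33 read 14.4, 14.7 and 11.9 CPM against 10.7, 9.99 and 10.5 in sedentary ZT0 muscle (log2 0.40, SE 0.10, adjusted p = 0.018). Runners stood above all sedentary ZT0 libraries. This smaller rise was lost without sedentary ZT0 replicate 1 or 2 or treadmill replicate 1 or 2 (0.34 to 0.42), and against sedentary ZT4 muscle (0.25, adjusted p = 0.14). After the ZT12 run, at 19.6, 20.3 and 17.2 CPM against 15.8, 16.4 and 17.2, it did not pass (log2 0.21, SE 0.10, adjusted p = 0.27). Sedentary levels differed with time (adjusted p = 0.00045), and ZT12 was the highest of the 4 groups, without overlap with the other three.

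Slc25a33 also differed with the wheel schedule. At ZT4 it read 16.9, 15.9, 17.1 and 17.4 CPM with the day wheel and 10.99, 10.4, 10.98 and 12.1 with the night wheel, and no library overlapped (log2 0.59, SE 0.08, adjusted p = 0.00022). By ZT16 night wheel muscle had risen to 14.8, 13.3, 18.3 and 17.4 CPM (log2 0.52, SE 0.08, adjusted p = 0.00027). Day wheel muscle had fallen to 13.3, 12.1, 11.5 and 13.9 CPM (log2 -0.40, SE 0.08, adjusted p = 0.0028). The directions were opposite, and the difference between them was -0.92 (SE 0.12, adjusted p = 1e-04).

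Slc25a36 (Entrez gene 192287) had the smallest adjusted p of all tested members in the comparison of the 4 sedentary groups. In sedentary quadriceps it read 34.9, 34.2 and 30.00 CPM at ZT0, 22.97, 24.8 and 23.9 at ZT4, 13.6, 10.9 and 11.9 at ZT12 and 18.2, 19.1 and 19.3 at ZT16. No 2 of these groups overlapped. From ZT12, the lowest, to ZT0, the highest, the fold was 2.72 (adjusted p across the 4 groups = 1.4e-09). Endothelial markers also differed among these groups, 5 of 6 of them, with sums of 261 to 316 CPM at ZT0 and 167 to 219 at ZT12, and their part in the sedentary differences was not tested. Night wheel gastrocnemius read 24.2, 24.3, 23.8 and 21.9 CPM at ZT4 and 15.7, 18.7, 18.3 and 12.1 at ZT16, without overlap (log2 -0.54, SE 0.11, adjusted p = 0.0017). Day wheel gastrocnemius read 22.4, 24.6, 26.7 and 20.9 and 21.5, 21.5, 20.9 and 22.1 CPM, with overlap (log2 -0.14, SE 0.10, adjusted p = 0.42). The difference between these changes was 0.40 (adjusted p = 0.1) and did not pass.

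Treadmill values of Slc25a36 depended on which sedentary group they were set against. Right after the ZT0 run it read 28.8, 30.6 and 30.3 CPM (log2 -0.15, SE 0.07, adjusted p = 0.25), and right after the ZT12 run 12.6, 13.6 and 14.2 CPM (log2 0.15, SE 0.08, adjusted p = 0.34). Neither passed against the sedentary group nearest in time. Against sedentary ZT4 and ZT16 muscle the signs turned, to 0.32 (adjusted p = 0.01) and -0.49 (adjusted p = 0.00056). In the ZT0 session at +3h it read 21.1, 23.4 and 21.97 CPM (log2 -0.11, SE 0.07, adjusted p = 0.38) and did not pass against sedentary ZT4, while against sedentary ZT0 it was a called fall (log2 -0.58, adjusted p = 3.7e-05). 3 h after the ZT12 run it read 14.2, 12.7 and 13.4 CPM (log2 -0.49, SE 0.08, adjusted p = 0.00014). That was a fall against sedentary ZT16, but against sedentary ZT12 the value was 0.15 (adjusted p = 0.19).

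The ATP/ADP exchangers and the phosphate carrier carry the bulk flow of oxidative phosphorylation. Slc25a4 passed in none of the 12 comparisons with all libraries in the fit. In sedentary quadriceps it read 3819.9, 3242 and 3955 CPM at ZT0, 3459, 3379.8 and 3355 at ZT4, 2766, 3162 and 3485 at ZT12 and 3407, 3835 and 3331 at ZT16. Right after the runs it read 3198, 3382 and 2811 CPM in the ZT0 session and 3206, 3235 and 3624 in the ZT12 session. At +3h the readings were 3353, 3236 and 3442 CPM and 3631, 3677.6 and 3485 CPM. Runners and sedentary libraries overlapped in all 4 comparisons, and the log2 fold changes were -0.23, 0.10, -0.02 and 0.03. For the first, the 95% interval was -0.42 to -0.04 (adjusted p = 0.13), and without sedentary ZT0 replicate 2, the lowest of its group, it was -0.31 and passed (adjusted p = 0.048). In gastrocnemius it read 3519, 3501, 3595 and 3621 CPM with the night wheel at ZT4, 3481, 3787, 3649 and 3646 with the day wheel at ZT4, 3659, 3678.8, 3819 and 3866 with the night wheel at ZT16 and 3995, 3674.8, 3609.6 and 3632 with the day wheel at ZT16. The night wheel ZT16 libraries lay above those of night wheel ZT4 without passing the test, the other pairs overlapped, and the widest of the 4 pairwise log2 changes was 0.08.

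Slc25a5, the ATP/ADP exchanger of most other tissues, did change. Right after the ZT0 run it read 54.1, 38.8 and 70.9 CPM against 31.5, 36.1 and 37.1 (log2 0.64, SE 0.17, adjusted p = 0.026). All 3 runners lay above the sedentary libraries. Replicates 3 and 1, the highest, were also the libraries with the most adipocyte marker RNA, 1814 and 1526 summed CPM, against 298.8 in replicate 2 and 230.1 to 661 in the sedentary group. When the adipocyte score was made a covariate the change was 0.32 (adjusted p = 0.18), and the call was also lost without treadmill replicate 1 or 3 or sedentary replicate 1 (0.65, 0.42 and 0.57). Macrophage markers summed to 134.9 to 160.0 CPM in these runners against 99.2 to 112 in the sedentary group. The part of adipocyte or macrophage RNA in the change of Slc25a5 was not tested further. In gastrocnemius, night wheel ZT4 muscle read 23.6, 25.2, 23.9 and 28.4 CPM and day wheel ZT4 muscle 27.2, 32.1, 37.2 and 35.4 (log2 0.38, SE 0.09, adjusted p = 0.0082), with overlap. Night wheel muscle rose to 33.7, 37.1, 36.7 and 33.6 CPM at ZT16 (log2 0.48, SE 0.09, adjusted p = 8e-04), while day wheel muscle read 31.8, 32.1, 27.6 and 27.9 (log2 -0.14, SE 0.09, adjusted p = 0.3). All night wheel ZT16 libraries lay above all night wheel ZT4 libraries, and the change differed between schedules by -0.63 (SE 0.12, adjusted p = 0.0033). Adipocyte markers summed to 152 to 204 CPM over all 16 gastrocnemius libraries.

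Slc25a3 differed among the sedentary groups, at 657, 518 and 673 CPM at ZT0, 556, 545 and 535 at ZT4, 464, 502 and 540.5 at ZT12 and 632, 636 and 554 at ZT16 (adjusted p = 0.042). The lowest 2 libraries were of ZT12, and ZT0 replicate 2 lay well below the other ZT0 libraries. The call was lost when any 1 of 9 of the 12 libraries was left out (all but sedentary ZT0 replicate 2, ZT12 replicate 3 and ZT16 replicate 3), and with the adipocyte covariate (adjusted p = 0.14). It passed in no run or wheel comparison.

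Among the amino acid carriers, Slc25a29, which carries basic amino acids, fell 3 h after both runs. It read 4.19, 3.70 and 4.20 CPM 3 h after the ZT0 run against 7.59, 6.82 and 6.64 in sedentary ZT4 muscle (log2 -0.80, SE 0.16, adjusted p = 0.0022). Sampled 3 h after the ZT12 run, it read 6.45, 4.63 and 5.34 CPM against 13.1, 14.3 and 9.93 (log2 -1.18, SE 0.16, adjusted p = 2.9e-05). Runners stood below every sedentary library in both. Sedentary ZT16 was itself the highest sedentary group, the others reading 9.72, 8.50 and 7.40 CPM at ZT0 and 5.64, 8.54 and 7.39 at ZT12 (adjusted p across groups = 0.0018). Against sedentary ZT12 the value was -0.39 (adjusted p = 0.09). Right after the runs the gene did not pass (log2 -0.22 and 0.15, adjusted p = 0.43 and 0.7).

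In gastrocnemius Slc25a29 was higher at ZT16 than at ZT4 with either wheel schedule. Night wheel muscle read 6.89, 8.09, 9.19 and 6.86 CPM at ZT4 and 11.4, 14.5, 13.3 and 10.5 at ZT16 (log2 0.68, SE 0.12, adjusted p = 0.00072). Day wheel muscle read 7.91, 7.46, 7.17 and 7.80 and 16.2, 13.9, 12.2 and 11.4 CPM (log2 0.82, SE 0.12, adjusted p = 0.00019). Neither pair overlapped, and the difference between schedules was 0.14 (95% interval -0.22 to 0.50, adjusted p = 0.67).

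Slc25a47 lies 13956 bp from Slc25a29 on chromosome 12 (chr12:108849833-108856815 and chr12:108825878-108835876), and its transport role is not settled. In the ZT12 libraries of +3h it read 3.60, 3.21 and 3.46 CPM against 8.23, 7.06 and 5.92 (log2 -1.05, SE 0.14, adjusted p = 2.2e-05), without overlap. By 3 h after the ZT0 run it read 4.48, 3.87 and 4.65 CPM against 5.20, 3.68 and 4.22, with overlap (log2 -0.02, SE 0.14, adjusted p = 0.95). The responses differed by -1.03 (SE 0.19, adjusted p = 0.0077). Sedentary ZT16 was again the high group, with 5.66, 5.20 and 5.55 CPM at ZT0 and 3.62, 3.97 and 4.93 at ZT12 (adjusted p = 0.0012), and against sedentary ZT12 the value was -0.29 (adjusted p = 0.16). In day wheel muscle it went from 4.97, 4.93, 4.29 and 4.42 CPM at ZT4 to 6.66, 5.35, 5.99 and 6.13 at ZT16 (log2 0.37, SE 0.12, adjusted p = 0.039), a call lost without any 1 of the 8 libraries except day wheel ZT16 replicate 2 (0.32 to 0.40).

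Slc25a22, a glutamate carrier, rose 3 h after the ZT12 run, from 14.1, 15.2 and 12.7 CPM in sedentary ZT16 muscle to 25.3, 29.2 and 28.9 (log2 0.99, SE 0.19, adjusted p = 0.0013). No library overlapped. 3 h after the ZT0 run it read 20.8, 14.6 and 18.01 CPM against 25.6, 20.1 and 17.7 (log2 -0.25, SE 0.19, adjusted p = 0.44), with overlap. The 2 responses differed by 1.24 (SE 0.27, adjusted p = 0.026), a call lost without any 1 of 6 libraries (treadmill +3h ZT0 replicate 2, sedentary ZT4 replicate 1, treadmill +3h ZT12 replicates 2 and 3, sedentary ZT16 replicates 1 and 3; 1.07 to 1.24). Sedentary muscle read 15.48, 12.1 and 11.3 CPM at ZT0 and 25.3, 22.03 and 21.8 at ZT12 (adjusted p across the 4 groups = 0.0075). Set against that higher ZT12 group, the +3h value was 0.27 (adjusted p = 0.35). Day wheel ZT4 muscle read 8.70, 9.16, 10.9 and 10.8 CPM and night wheel ZT4 muscle 17.99, 14.5, 11.3 and 25.1 (log2 -0.81, SE 0.22, adjusted p = 0.03). Night wheel replicate 4 was the highest, and without it the value was -0.56 and did not pass. The call also ended without night wheel replicate 1 or any 1 of the 4 day wheel libraries.

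**Figure D4:**
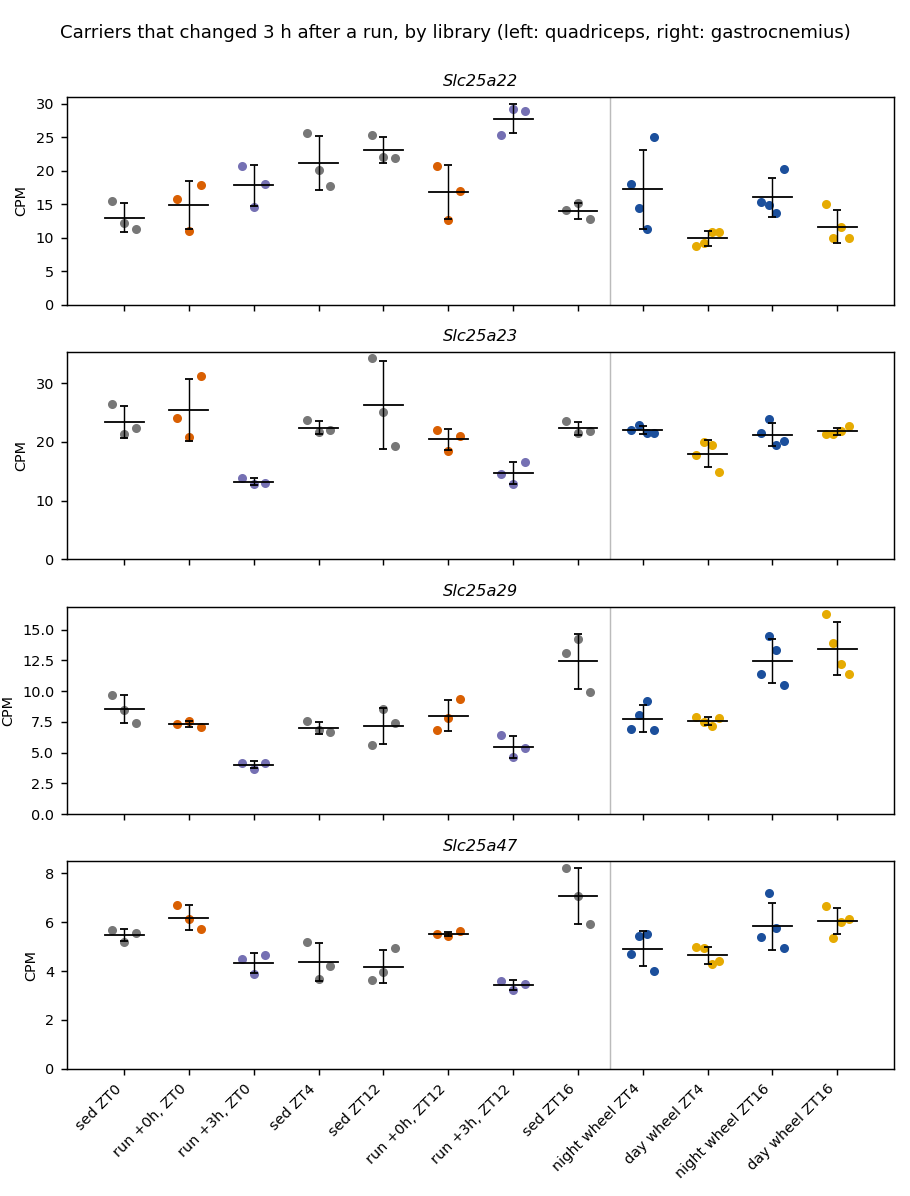
CPM of Slc25a22, Slc25a23, Slc25a29 and Slc25a47 in every library of the 12 groups, with the group mean and bars of 1 SD. Sedentary ZT16 muscle is the highest sedentary group for Slc25a29 and Slc25a47 and among the lowest for Slc25a22, and the treadmill +3h libraries of Slc25a23 lie between 12.8 and 16.6 CPM.

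Of the other amino acid carriers, Slc25a15, the ornithine carrier of the urea cycle, and Slc25a38, the glycine carrier that feeds haem synthesis, fell 3 h after the ZT12 run. Slc25a15 read 14.1, 12.3 and 11.7 CPM against 16.1, 16.5 and 15.48 (log2 -0.34, SE 0.08, adjusted p = 0.0044). Slc25a38 read 11.8, 12.6 and 12.7 CPM against 14.6, 14.6 and 14.6 (log2 -0.24, SE 0.06, adjusted p = 0.0089). Both falls were small beside those of Slc25a29 and left no overlap, but the value of Slc25a38 was 0.02 (adjusted p = 0.89) against sedentary ZT12 and missed the threshold in a fit of these 6 libraries alone (adjusted p = 0.053). Slc25a38 differed among sedentary groups, with 13.5, 14.2 and 14.3 CPM at ZT0, 13.3, 12.2 and 13.3 at ZT4 and 11.1, 12.8 and 12.8 at ZT12 (adjusted p = 0.019). Without sedentary ZT12 replicate 1 this call was lost (adjusted p = 0.051). Slc25a15 also fell in night wheel muscle, from 15.9, 17.3, 16.8 and 16.7 CPM at ZT4 to 14.3, 13.6, 14.1 and 14.5 at ZT16 (log2 -0.24, SE 0.06, adjusted p = 0.0065). Slc25a12 and Slc25a13, the aspartate/glutamate carriers, Slc25a44, which carries branched-chain amino acids, and Slc25a2 passed nowhere.

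Among the cofactor carriers, Slc25a16, linked to coenzyme A transport, was lower after runs in 3 comparisons. Right after the ZT12 run it read 26.6, 26.8 and 26.6 CPM against 34.2, 31.1 and 31.4 (log2 -0.27, SE 0.07, adjusted p = 0.027). At +3h it read 21.7, 23.9 and 22.9 CPM against 26.4, 26.3 and 27.5 in the ZT0 session (log2 -0.22, SE 0.07, adjusted p = 0.039) and 23.7, 21.9 and 21.5 against 23.8, 26.8 and 27.3 in the ZT12 session (log2 -0.22, SE 0.07, adjusted p = 0.04). None of the 3 pairs of groups overlapped, although the falls were among the smallest called. All 3 calls were fragile: 4, 5 and 4 of the 6 left-out libraries ended them, with values from -0.28 to -0.18, and right after the ZT12 run the sign turned against sedentary ZT16 (0.04, adjusted p = 0.81). Sedentary ZT12 was the highest sedentary group (adjusted p across groups = 0.0077, lost without its replicate 1).

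Slc25a42, the carrier of coenzyme A, fell 3 h after the ZT0 run, to 37.1, 36.7 and 44.1 CPM from 57.6, 51.04 and 48.9 (log2 -0.42, SE 0.10, adjusted p = 0.0082). Against sedentary ZT0 muscle, at 47.7, 42.7 and 45.2 CPM, the value was -0.20 (adjusted p = 0.2). It rose slightly in night wheel muscle from 47.7, 44.02, 46.2 and 44.7 CPM at ZT4 to 54.9, 49.7, 48.3 and 51.5 at ZT16 (log2 0.16, SE 0.05, adjusted p = 0.031), a call lost in 5 of 8 fits with 1 library left out. Slc25a17, Slc25a26, Slc25a32, Slc25a39, Slc25a40 and Slc25a51 passed nowhere.

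The iron carriers are the mitoferrins. Slc25a28 rose 3 h after the ZT12 run, to 30.3, 31.3 and 31.4 CPM from 22.5, 24.3 and 22.3 (log2 0.43, SE 0.08, adjusted p = 0.00095). The 3 runners exceeded every other treadmill or sedentary library. Slc25a37, the erythroid form, did not pass anywhere.

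Of the relatives of the uncoupling proteins, Slc25a27 fell right after the ZT0 run, to 8.90, 10.7 and 8.60 CPM from 12.6, 12.53 and 11.9 (log2 -0.39, SE 0.08, adjusted p = 0.0042). It kept the call with each of the 6 libraries left out but not in a fit of those 6 libraries alone (-0.40, adjusted p = 0.069). After the ZT12 run it did not pass (12.52, 12.03 and 11.9 against 12.2, 13.2 and 11.9 CPM, log2 -0.03, SE 0.08, adjusted p = 0.89), and the difference between sessions was 0.36 (adjusted p = 0.26).

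Slc25a30 differed with the time of day. Sedentary quadriceps read 3.04, 5.39 and 7.96 CPM at ZT0, 2.27, 4.90 and 3.46 at ZT4, 13.4, 9.45 and 10.3 at ZT12 and 8.75, 22.6 and 15.02 at ZT16 (adjusted p = 0.0012). The ZT12 and ZT16 libraries lay above all ZT0 and ZT4 libraries, with a 4.42-fold span between group levels. Night wheel muscle rose from 3.77, 3.59, 2.87 and 9.15 CPM at ZT4 to 20.7, 10.8, 16.4 and 32.3 at ZT16 (log2 2.01, SE 0.50, adjusted p = 0.014). Day wheel muscle read 4.47, 4.76, 4.58 and 13.9 and 14.4, 20.9, 13.5 and 25.4 CPM and did not pass (log2 1.43, SE 0.48, adjusted p = 0.067). In both ZT4 groups replicate 4 stood well above the others. Slc25a14 passed nowhere, and neither did Slc25a46, the outer membrane member that acts on mitochondrial shape.

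Slc25a34, with no settled transport role, rose in night wheel muscle from 11.2, 10.4, 10.1 and 13.1 CPM at ZT4 to 18.2, 24.5, 19.6 and 18.8 at ZT16 (log2 0.85, SE 0.21, adjusted p = 0.012). Day wheel muscle read 9.97, 15.4, 19.97 and 17.2 and 15.4, 13.6, 12.8 and 8.31 CPM (log2 -0.32, SE 0.21, adjusted p = 0.36). The first pair did not overlap and the second did. The changes differed by -1.18 (SE 0.30, adjusted p = 0.025), which missed the threshold without night wheel ZT4 replicate 2 or 3 or day wheel ZT4 replicate 4 (-1.14, -1.13 and -1.13). In quadriceps it ranged from 5.36 to 28.9 CPM and passed in no comparison. In ZT12 runners at +3h it read 28.9, 27.95 and 26.2 CPM against 19.04, 18.4 and 10.6 (log2 0.79, SE 0.38, adjusted p = 0.18).

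Slc25a20 moves acylcarnitines into the matrix in exchange for carnitine, the step between the carnitine palmitoyltransferases. It read 65.1, 46.9 and 61.5 CPM in sedentary ZT0 muscle, 59.9, 53.1 and 50.9 at ZT4, 57.96, 58.3 and 65.6 at ZT12 and 69.7, 72.8 and 58.3 at ZT16. Runners read 48.1, 51.3 and 67.1 CPM right after the ZT0 run and 63.3, 48.5 and 64.7 right after the ZT12 run. At +3h they read 60.96, 45.7 and 52.3 CPM in the ZT0 session and 77.1, 73.5 and 80.1 in the ZT12 session. Only the last group lay above its sedentary libraries, by log2 0.20 (SE 0.14, adjusted p = 0.39), which did not pass. The other three log2 fold changes were -0.06, -0.04 and -0.05, and the sedentary groups did not differ by the test (adjusted p = 0.42). In gastrocnemius it rose in night wheel muscle from 56.3, 55.1, 56.9 and 61.5 CPM at ZT4 to 69.3, 74.6, 67.5 and 71.8 at ZT16 (log2 0.30, SE 0.08, adjusted p = 0.017). Day wheel muscle read 53.9, 66.5, 65.3 and 63.6 and 74.7, 64.2, 72.4 and 54.8 CPM, which overlapped (log2 0.09, SE 0.08, adjusted p = 0.51). The night wheel call was lost without night wheel ZT4 replicate 2 or ZT16 replicate 2 (0.28 in both), and the difference between schedules was -0.21 (adjusted p = 0.31).

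The 6 other genes of the carnitine shuttle gave 1 call in each +3h comparison (16.7%, against 13.6% and 17.2% of all genes). Cpt1a, the liver form of the outer membrane palmitoyltransferase, rose by 0.54 (adjusted p = 0.0033) in the ZT0 session and by 1.62 (adjusted p = 1.8e-08) in the ZT12 session. The ZT12 response was larger by 1.09 (adjusted p = 0.0018). Cpt2, the inner membrane enzyme that receives what Slc25a20 delivers, rose from ZT4 to ZT16 in night wheel muscle by 0.24 (adjusted p = 0.014).

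Slc25a1, the citrate carrier of lipid synthesis, and Slc25a10, the dicarboxylate carrier, varied widely between libraries of 1 group. Right after the ZT0 run Slc25a1 read 83.3, 5.85 and 181 CPM against 10.4, 32.9 and 10.1 in sedentary muscle, and Slc25a10 29.5, 6.16 and 58.03 against 7.42, 13.8 and 6.11. Replicate 2 lay within or below the sedentary values for both genes, and replicates 1 and 3 far above. The log2 fold changes were 2.32 (SE 1.03, adjusted p = 0.19) and 1.75 (SE 0.64, adjusted p = 0.11), and neither passed in edgeR. DESeq2 called Slc25a10 (1.78, adjusted p = 0.046). Without treadmill replicate 2 Slc25a10 also passed in edgeR (2.24, adjusted p = 0.02), as did the difference of its +0h responses between sessions (-3.35, adjusted p = 0.042, against -2.86 and 0.26 with all libraries). With 1 library left out the values after the ZT0 run ran from 1.33 to 3.13 for Slc25a1, which passed in none of these fits, and from 0.97 to 2.24 for Slc25a10. All 8 adipocyte markers had a higher mean in that comparison, 7 with an unadjusted p under 0.05 and none called, with a median log2 fold change of 1.85.

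The 3 quadriceps libraries with the most adipocyte marker RNA were sedentary ZT12 replicate 1 and treadmill +0h ZT0 replicates 3 and 1, at 2380, 1814 and 1526 summed CPM. They were also the 3 with the highest Slc25a1 and Slc25a10. When the adipocyte score was made a covariate the change of Slc25a1 after the ZT0 run was -0.48 (adjusted p = 0.72). That of Slc25a10 after the ZT0 run kept its sign with the covariate and did not pass. After the ZT12 run the values without the covariate were -1.65 for Slc25a1 and -1.11 for Slc25a10, and with it 0.37 and 0.11. The part of adipocyte RNA in these values was not tested further. In gastrocnemius, where adipocyte markers were low, Slc25a10 rose in day wheel muscle from 5.36, 5.63, 5.19 and 4.37 CPM at ZT4 to 6.92, 5.29, 6.99 and 7.59 at ZT16 (log2 0.38, SE 0.12, adjusted p = 0.036). The groups overlapped, 3 adipocyte markers also passed there (1 higher and 2 lower), and leaving out 6 of the 8 libraries in turn ended the call (0.31 to 0.40 in those fits). Slc25a11, the third tested member of this class, passed nowhere.

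**Figure D5:**
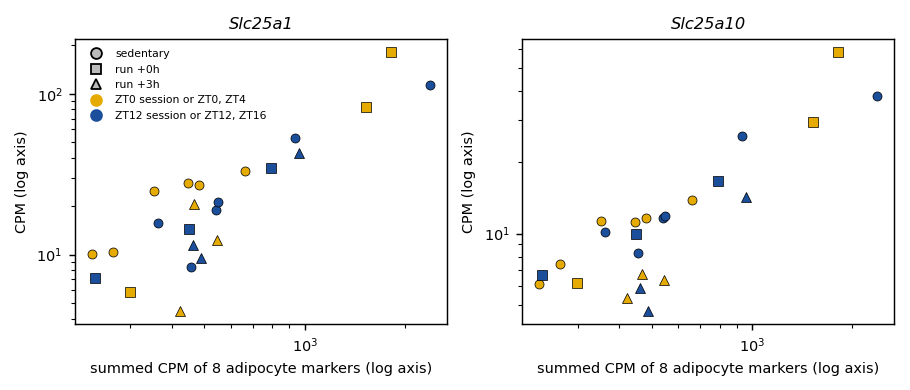
CPM of Slc25a1 and Slc25a10 against the summed CPM of 8 adipocyte markers in each of the 24 quadriceps libraries (log axes), with symbols for sedentary, +0h and +3h muscle and colours for the time of day. The 3 libraries farthest right, at 1526 to 2380 summed CPM, are also the 3 highest for both carriers.

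Among 12 other membrane carriers of mitochondria that carry no Slc25a symbol, 3 rose right after the ZT0 run (25%, against 6.82% of all genes) and none passed in edgeR right after the ZT12 run (0% against 4.6%), where 2 had an unadjusted p under 0.05. 3 rose and 2 fell 3 h after the ZT0 run (41.7% against 13.6%), and 4 rose and 1 fell 3 h after the ZT12 run (41.7% against 17.2%). They included the uncoupling proteins, which belong to the same protein family under other symbols. Ucp3, the muscle form, rose by 1.33 and 2.33 on the log2 scale at +3h (adjusted p = 0.0042 and 2.9e-05), and Ucp2 by 1.27 3 h after the ZT12 run (adjusted p = 1e-04). Sfxn2, a sideroflexin, fell by 0.83 3 h after the ZT0 run (adjusted p = 0.0015). In gastrocnemius it was lower with the day wheel at ZT4 (log2 -0.62, SE 0.15, adjusted p = 0.013) and rose from ZT4 to ZT16 with that schedule (log2 0.85, SE 0.15, adjusted p = 0.00099). Mpc1, a subunit of the pyruvate carrier, was slightly higher with the day wheel at ZT4 (log2 0.17, SE 0.04, adjusted p = 0.0074).

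Genes of the partner lists passed in places. Of 11 genes of ATP synthase and creatine kinase, 2 fell right after the ZT0 run, Atp5c1 and Atp5g3 (log2 -0.26 and -0.38, adjusted p = 0.039 and 0.042), and Ckm, muscle creatine kinase, rose 3 h after the ZT12 run (log2 0.34, SE 0.08, adjusted p = 0.0068). These made 18.2% and 9.09% of the list, against 6.82% and 17.2% of all genes, and none of the 11 passed right after the ZT12 run or 3 h after the ZT0 run in edgeR, where 2 and 0 had an unadjusted p under 0.05. Among the sedentary groups 3 of the 11 differed (27.3%, against 17.1% of all genes): Atp5pb, Atp5g3 and Ckmt2, the mitochondrial creatine kinase of muscle (adjusted p = 0.03, 0.029 and 0.037). The malate-aspartate shuttle uses Slc25a11 and Slc25a12. Of 6 genes of that shuttle and of the glycerophosphate shuttle, 1 rose right after the ZT0 run, Gpd1 (log2 0.33, SE 0.08, adjusted p = 0.019). This is 16.7% of the list against 6.82% of all genes, and none rose in the other 3 treadmill comparisons. Mdh1 and Gpd2 differed among the sedentary groups (2 of 6, 33.3%, adjusted p = 0.042 and 0.046). None of the 3 outer membrane channels and none of the 5 calcium uniporter genes passed in the 4 treadmill comparisons in edgeR, although the channels had 1 with an unadjusted p under 0.05 in 2 of them and the uniporter genes 1 in 1 of them. Mcu, the pore of the uniporter, fell from ZT4 to ZT16 in night wheel muscle (log2 -0.22, SE 0.07, adjusted p = 0.042).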

How the data were processed

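Polyadenylated RNA of snap-frozen quadriceps and gastrocnemius was sequenced in 40 libraries on 2 lanes, with a stranded library kit, per the labels' protocols. The authors deposited estimated counts per Entrez gene and lane. The submitters' processing notes name bcl2fastq 2.20.0.422, kallisto 0.46.2, DESeq2 1.26.0, GRCm38.p6 and mm10. The sources used here do not give how transcripts were combined into genes. Both lanes were added up for each library, and the sums were rounded to whole numbers. Of 23621 identifiers, 23614 matched a symbol, and the other 7 held 0.00139% of the counts.

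Each muscle was fitted once with edgeR 4.0.16 in R 4.3.3 (quasi-likelihood test, TMM scaling, filterByExpr with a minimum count of 10), which left 15097 genes in quadriceps and 14523 in gastrocnemius. Adjusted p-values are Benjamini-Hochberg values over all of them, with a threshold of 0.05. A standard error is the log2 fold change divided by the root of its F statistic. CPM uses the scaled library sizes, and levels per kb divide by the mean length of the gene's coding transcripts in the reference annotation. The script was tested on simulated data. P-values set a difference between groups against the spread within groups, estimated from all libraries of the muscle and moderated across genes.

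The members, the partner and marker lists and the tests were chosen with earlier results of these data known. Values per library are given for members that passed, at most the 8 with the smallest p in a comparison, and always for Slc25a4, Slc25a20, Slc25a25 and Slc25a36. Partners are named by the smallest p, at most 3 for a list and comparison. Values of Slc25a1 and Slc25a10 after the runs, of members named beyond the first 8, and of members that did not pass in a comparison set beside one where they did, were chosen after they were seen. Alternatives were DESeq2 (1.42.0) as the test, its size factors in edgeR, no filter on low counts, the replicate number as a block, the adipocyte score (mean log2 CPM of 8 markers) as a covariate, the other sedentary group as control, a fit of the compared groups alone, and leaving out each library. Results of 1 member are not reported here, although the counts over the family include it. No 2 libraries of a group matched within counting noise.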

Additional observations from a re-analysis of the deposited data

Results flagged for a closer look

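Among 60 sets of 4 gastrocnemius libraries (15 members in 4 groups), 3 held a library far from the other three, and chance gives about 1 such set in 20. Slc25a30 read 9.15 CPM in night wheel ZT4 replicate 4 against 2.87 to 3.77 in the others, and 13.9 CPM in day wheel ZT4 replicate 4 against 4.47 to 4.76. Slc25a4 read 3995 CPM in day wheel ZT16 replicate 1 against 3609.6 to 3674.8.

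The +3h response differed between the ZT12 and ZT0 sessions for 3 members in edgeR's test of the difference. It was higher after the ZT12 run by 1.24 for Slc25a22 (adjusted p = 0.026) and by 0.63 for Slc25a33 (adjusted p = 0.025), and differed by -1.03 for Slc25a47 (adjusted p = 0.0077), on the log2 scale. With 1 library left out, the Slc25a22 call was lost in 6 of 12 fits and the Slc25a33 call in 7 of 12. Against sedentary ZT12, the +3h values of the ZT12 session were 0.27 for Slc25a22 and -0.29 for Slc25a47, and neither passed. The change from ZT4 to ZT16 differed between day and night wheel schedules by -0.63 for Slc25a5 (adjusted p = 0.0033), -3.46 for Slc25a25 (adjusted p = 0.0012), -0.92 for Slc25a33 (adjusted p = 1e-04) and -1.18 for Slc25a34 (adjusted p = 0.025). The Slc25a34 call was lost in 3 of 16 fits with 1 library left out.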

How the results depend on the processing

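Of 78 values, 77 kept their direction and side of the threshold with DESeq2 size factors, 77 without a filter on low counts and 77 with DESeq2 as the test. With DESeq2 the members differing between day and night wheel at ZT16 went from 0 to 4. The same held for 59 of 74 in fits of the compared groups alone, where the count right after the ZT0 run was 1 and after the ZT12 run 1. Against the other sedentary group 23 of 39 held, and the counts were 7 right after the ZT0 run, 4 after the ZT12 run and 7 at +3h of the ZT12 session. The sign then turned for Slc25a36 (0.32, -0.49 and, at +3h of the ZT12 session, 0.15), for Slc25a20 after the ZT0 run (0.021), for Slc25a16 (0.038) and Slc25a4 (-0.071) after the ZT12 run, and for Slc25a38 at +3h of the ZT12 session (0.015). With the adipocyte covariate 44 of 53 held and the count after the ZT12 run was 1. The sign turned for Slc25a1 (-0.48 and 0.37 after the ZT0 and ZT12 runs, 0.85 for their difference), Slc25a10 (0.11 and, for the difference, 0.038) and Slc25a4 after the ZT12 run (-0.012). The cause of these changes was not tested, and the fits of compared groups alone also hold fewer samples. Counts of all genes called in the same fits are not given here.

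Replicate numbers gave no clear sign of pairing. Deviations of same-numbered libraries correlated by -0.62 to 0.50 in quadriceps (21 of 84 pairs over 0.1) and -0.19 to 0.22 in gastrocnemius (3 of 24). Those of differently numbered libraries correlated by -0.61 to 0.68 (51 of 168) and -0.24 to 0.15 (4 of 72). With the replicate block 76 of 78 values held, the day against night wheel count at ZT16 was 1, and 2 calls were lost (Slc25a3 among sedentary groups, adjusted p = 0.057, and the schedule difference of Slc25a34, -1.16, adjusted p = 0.056).

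With 1 library left out, the counts ran from 2 to 7 right after the ZT0 run, 0 to 4 after the ZT12 run, 4 to 7 and 8 to 11 at +3h of the ZT0 and ZT12 sessions, 0 to 4 and 1 to 3 for the session differences at +0h and +3h, and 6 to 10 among sedentary groups. For the wheel they ran from 3 to 5 at ZT4, 0 to 1 at ZT16, 9 to 11 for night, 3 to 5 for day and 3 to 6 for the interaction. These counts also come without those of all genes in the same fits. Slc25a20 ran from -0.21 to 0.034 after the ZT0 run, -0.12 to 0.079 after the ZT12 run and -0.16 to 0.051 at +3h of the ZT0 session, turning sign in 2 fits of each, and Slc25a4 from -0.0093 to 0.095 at +3h of the ZT12 session. The 7 untested members did not pass the filter on low counts, and Slc25a54 among them had 3 counts in all.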
